A study of Homo sapiens with 6 samples.

Results

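The eIF2alpha kinases are the 4 enzymes that phosphorylate the alpha subunit of the translation initiation factor eIF2, and their genes are EIF2AK1 (HRI), EIF2AK2 (PKR), EIF2AK3 (PERK) and EIF2AK4 (GCN2). Their members were taken by gene symbol from the platform annotation of the arrays, which gave 1 probe set per gene, so 4 of the 14812 genes tested and 4 of the 44629 probe sets on the arrays are described here. The cells were HuH7, a line from a human liver carcinoma, and a whole-transcript Affymetrix array gave a log2 value for each probe set. The 2 groups, of 3 arrays each, received 50 pmol of a control gapmer or of a gapmer against the long noncoding RNA EGOT. A gapmer is a short modified oligonucleotide that directs RNase H to cut a complementary RNA. All 6 samples also received a carrier plasmid with 0.3 µg of a plasmid expressing PKR, in 1 µg of DNA per well, together with poly I:C, a man-made RNA duplex that mimics viral RNA, and RNA was taken at 36 hours. PKR was therefore supplied from a plasmid in both groups, and no array without that plasmid was analysed here. Each group rests on 1 gapmer sequence in 1 cell line, and the labels do not say whether replicates were separate cultures, so p-values here cover only the spread among these arrays, and that spread may be technical.

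Each kinase senses a different stress through its own regulatory domain and shares the kinase domain and the substrate with the others. PKR is activated by double-stranded RNA such as viral RNA or poly I:C, and its gene is induced by interferon. HRI responds to haem shortage and to mitochondrial and oxidative stress, PERK to unfolded protein in the endoplasmic reticulum, and GCN2 to uncharged tRNA and stalled ribosomes. Phosphorylated eIF2alpha blocks the exchange factor eIF2B, which lowers general translation and raises translation of a few mRNAs such as that of the transcription factor ATF4. In hepatitis virus infection of liver cells PKR is both a sensor and an effector.

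The sequences that set the groups apart are the 16 bases and 15 bases which the labels give for the gapmers. The labels describe the gapmer sequence as the targeted one, and its strand relative to the oligonucleotide is not stated. The bases are in the order of the labels, in lower case with no part marked.
EGOT gapmer: agagacacttagaaga
control gapmer: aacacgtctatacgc

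The promoter of EIF2AK2 is shown because this gene's reading, which may include the plasmid's transcript, fell with the EGOT gapmer together with other interferon-induced genes. It lies at chr2:37156931-37157230 on the minus strand (GRCh38.p14, RefSeq) and runs from 250 bases before the annotated start to the first bases of the transcript. Capitals mark its 1 match to GAAANNGAA, the tandem core of the interferon-stimulated response element, searched on both strands.
EIF2AK2: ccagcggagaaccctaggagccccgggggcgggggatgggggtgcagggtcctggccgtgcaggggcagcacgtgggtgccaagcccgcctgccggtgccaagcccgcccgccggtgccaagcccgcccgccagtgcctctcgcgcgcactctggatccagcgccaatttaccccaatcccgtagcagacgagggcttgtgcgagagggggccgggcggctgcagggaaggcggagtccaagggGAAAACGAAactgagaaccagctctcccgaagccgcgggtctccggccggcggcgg

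The same core is shown with 10 bases on each side for EIF2AK2 and for the 4 interferon-stimulated genes with the smallest p of a list described further on. Capitals again mark the match, and each window is printed along its gene's strand. The windows are chr2:37156968-37156996 (minus strand) for EIF2AK2, chr1:78620274-78620302 (plus) for IFI44L, chr2:6865796-6865824 (plus, the first of its listed promoters with a match) for RSAD2, chr4:168318822-168318850 (minus) for DDX60 and chr13:42992273-42992301 (minus) for EPSTI1.
EIF2AK2: agtccaagggGAAAACGAAactgagaacc
IFI44L: tcctagtgagGAAAAAGAAagttagtggc
RSAD2: agcgggaaacGAAAGCGAAgcgttgcggg
DDX60: gtgctgaaggGAAACTGAAacctaagtgc
EPSTI1: ctgattctgaGAAACCGAAactcagctgt

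In EIF2AK2 the match began 6 bases before the annotated start, and it continued into a match to ANNGAAACT, the right end of the same element, which overlaps the first by 6 bases. Of 35116 promoters of 300 bases in the RefSeq table, 2847 (8.11%) held GAAANNGAA and 1556 (4.43%) held ANNGAAACT on either strand. For the kinase genes only the first listed promoter was counted. EIF2AK3 and EIF2AK4 had 0 matches to either there, and EIF2AK1 has no entry in the table. For CCAAT the promoters of EIF2AK2, EIF2AK3 and EIF2AK4 held 2, 4 and 0 matches, and for the GC box GGGCGG 4, 0 and 4, whereas 34.6% and 45.0% of all promoters held at least 1. A match describes the letters and not a bound site.

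Across the arrays, medians over all probe sets lay between 5.08 and 5.23, and correlations between arrays were 0.987 to 0.992 within groups and 0.985 to 0.988 between them. EGOT itself fell by 1.76 on the log2 scale (limma adjusted p = 0.00760). With limma, 1245 of 14812 genes (8.41%) passed an adjusted p of 0.05, 770 higher (5.2%) and 475 lower (3.21%) with the EGOT gapmer. The share of calls that were higher was 61.8% in the deposited values, 50.2% after a further quantile normalization and 48.8% after cyclic loess. The 3 values of one group lay wholly above or below those of the other in 31.7% of genes, above in 20.2% and below in 11.5%. Hepatocyte and hepatoma markers were bright, as 12 of 15 were measured and all 12 were brighter than the middle gene, with ALB at 13.68 and AFP at 13.32 with the control gapmer. Of 9 leukocyte markers 5 were measured, and their mean level was 6.64 to 6.77 in the control gapmer arrays and 6.97 to 7.10 in the EGOT gapmer arrays. CD68 and LYZ, both of lysosomes or secretory granules, rose, while CD14, CD2 and NKG7 were dim and did not pass. Markers of endothelium (3 of 7 measured) and of fibroblasts (3 of 8) had 0 genes past the threshold and 0 brighter than the middle gene. The part of these markers in the results on the kinases was not tested.

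**Figure D1:**
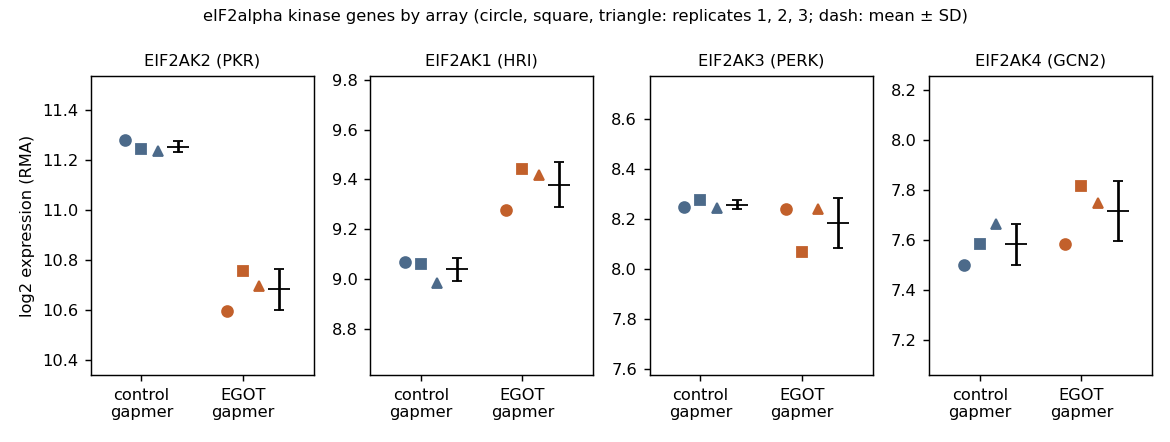
Log2 expression (vertical axis, RMA values, the same span in each panel) of the 4 kinase genes in each array, by gapmer (horizontal axis). Points are arrays and dashes with bars are means ± SD of 3 arrays. EIF2AK2 sits between 11.24 and 11.28 with the control gapmer and between 10.60 and 10.76 with the EGOT gapmer, EIF2AK1 moves the other way, and the other panels show smaller differences.

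Of the 4 kinase genes, EIF2AK2 fell and EIF2AK1 rose with the EGOT gapmer, whereas EIF2AK3 and EIF2AK4 did not pass the test. EIF2AK2, the gene of the double-stranded RNA sensor PKR, went to 67.3% of its control level. EIF2AK1, the gene of the haem-regulated kinase HRI, went to 127% of its control level. So 2 of 4 genes passed limma's threshold, beside 8.41% of all genes, and 3 of 4 had groups that did not overlap, beside 31.7% (20.2% higher and 11.5% lower). All 4 probe sets lay above the array median on all 6 arrays, and none shared its 6 values with another probe set.

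EIF2AK2 read 11.28, 11.25 and 11.24 in control gapmer replicates 1 to 3 and 10.60, 10.76 and 10.69 in EGOT gapmer replicates 1 to 3. Every EGOT gapmer array was thus below every control array, with a gap of 0.482 between the nearest values. The log2 means were 11.25 ± 0.0224 and 10.68 ± 0.0806 (SD, n = 3 each). EGOT gapmer minus control gapmer came to -0.57 (SE 0.0720, limma adjusted p = 0.0119), a fold of 0.673 with a 95% interval of 0.598 to 0.757. A larger fall was seen in 121 of the 14812 genes, or 0.817%. The gene spans chr2:37099210-37156980 in GRCh38.p14. Its probe set was not located within the transcript here, so a reading of the plasmid's transcript cannot be told apart from one of the cell's own.

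The fall in EIF2AK2 lay between -0.61 and -0.53 in every alternative, but did not always keep its call. The mean of probe sets, a filter on dim genes, a variance trend and a replicate block cannot change its size, so they do not test it. Without control gapmer replicate 1, 2 or 3 the limma adjusted p was 0.0605, 0.0640 and 0.0616. Without EGOT gapmer replicate 1, 2 or 3 it was 0.0358, 0.0318 and 0.0481.

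EIF2AK1 read 9.07, 9.06 and 8.99 in control gapmer replicates 1 to 3 and 9.28, 9.44 and 9.42 in EGOT gapmer replicates 1 to 3. The groups did not overlap, and the nearest values were 0.206 apart. The log2 means were 9.04 ± 0.0457 and 9.38 ± 0.0904 (SD, n = 3 each). EGOT gapmer minus control gapmer came to 0.34 (SE 0.0761, limma adjusted p = 0.0409), a fold of 1.27 with a 95% interval of 1.12 to 1.43. A larger rise was seen in 1130 genes, or 7.63%. HRI is best known from red cell precursors, where it ties globin synthesis to haem, and in other cells it relays mitochondrial stress. The gene spans chr7:6022247-6059175.

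This rise was close to the threshold, and its call was lost when any 1 of the 6 arrays was left out. The limma adjusted p was then 0.108, 0.123 and 0.140 without control gapmer replicates 1 to 3 and 0.0509, 0.0885 and 0.112 without EGOT gapmer replicates 1 to 3. The log2 difference stayed between 0.31 and 0.39.

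EIF2AK3, the gene of the endoplasmic reticulum kinase PERK, read 8.25, 8.28 and 8.25 with the control gapmer and 8.24, 8.07 and 8.24 with the EGOT gapmer. The groups were separated by only 0.00375, and EGOT gapmer replicate 2 lay below all the other arrays. EGOT gapmer minus control gapmer came to -0.07 (SE 0.0760, limma adjusted p = 0.614), and its 95% interval ran from 0.840-fold to 1.08-fold. Without EGOT gapmer replicate 2 the difference was -0.02. The gene spans chr2:88556741-88628145.

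EIF2AK4, the gene of the amino acid sensor GCN2, read 7.50, 7.58 and 7.67 with the control gapmer and 7.58, 7.82 and 7.75 with the EGOT gapmer. The groups overlapped, since EGOT gapmer replicate 1 lay among the control arrays. EGOT gapmer minus control gapmer came to 0.13 (SE 0.0883, limma adjusted p = 0.416), and its 95% interval ran from 0.949-fold to 1.27-fold. The upper end of that interval lies close to the rise measured in EIF2AK1, so these arrays do not show that EIF2AK4 stayed level. The gene spans chr15:39934115-40035591.

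**Figure D2:**
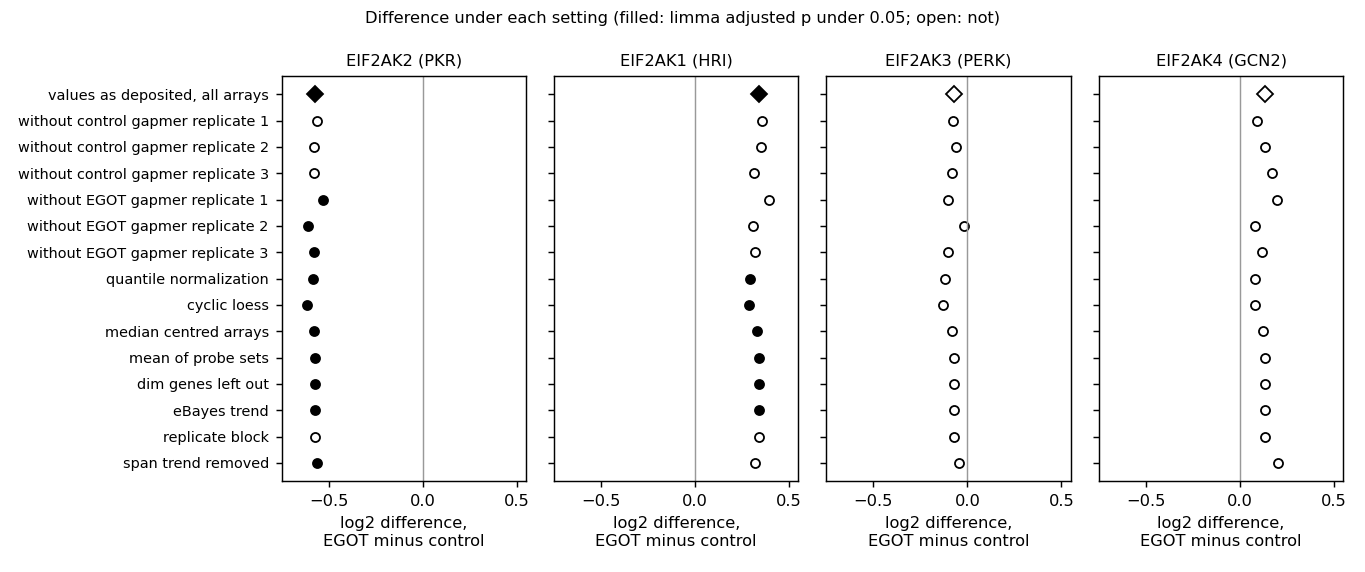
Log2 difference of each kinase gene, EGOT gapmer minus control gapmer (horizontal axis), under each way of processing or leaving out an array (vertical axis). Filled symbols passed a limma adjusted p of 0.05, and open ones did not. EIF2AK2 stays between -0.61 and -0.53 and passes in 10 of 14 alternatives, EIF2AK1 stays between 0.29 and 0.39 and passes in 6 of 14, and EIF2AK3 and EIF2AK4 pass in 0.

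Whether the kinase genes changed unequally was tested on the difference of 2 genes within each array, which cancels a shift shared by an array's probe sets. EGOT gapmer replicate 2 had the highest array median, and it read highest of its group for EIF2AK1, EIF2AK2 and EIF2AK4 but lowest for EIF2AK3. Against EIF2AK2, EIF2AK1 changed by 0.91 on the log2 scale, the largest of the 6 pairs. The within-array values were -2.21, -2.18 and -2.25 with the control gapmer and -1.32, -1.31 and -1.28 with the EGOT gapmer. Only the change in these values has a meaning, since levels of different probe sets are not comparable. The SD of that difference among the EGOT gapmer arrays was 0.0240, less than the 0.0904 and 0.0806 of the single genes. Among the control gapmer arrays it was 0.0340, above the 0.0224 of EIF2AK2 and below the 0.0457 of EIF2AK1. In the pairs of EIF2AK1 and EIF2AK2 with EIF2AK3 it was 0.170 among the EGOT gapmer arrays. Each pair gave p = 0.1 (two-sided exact permutation test, adjusted p = 0.12 over 6 pairs), the smallest p that 3 arrays against 3 allow, except EIF2AK3 against EIF2AK4.

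Relative to EIF2AK3, EIF2AK2 changed by -0.50, and relative to EIF2AK4 by -0.70, and the groups did not overlap in either pair. EIF2AK1 changed by 0.41 relative to EIF2AK3 and by 0.21 relative to EIF2AK4, again without overlap. For EIF2AK3 against EIF2AK4 the change was -0.21, the groups overlapped and the exact permutation p was 0.2.

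**Figure D3:**
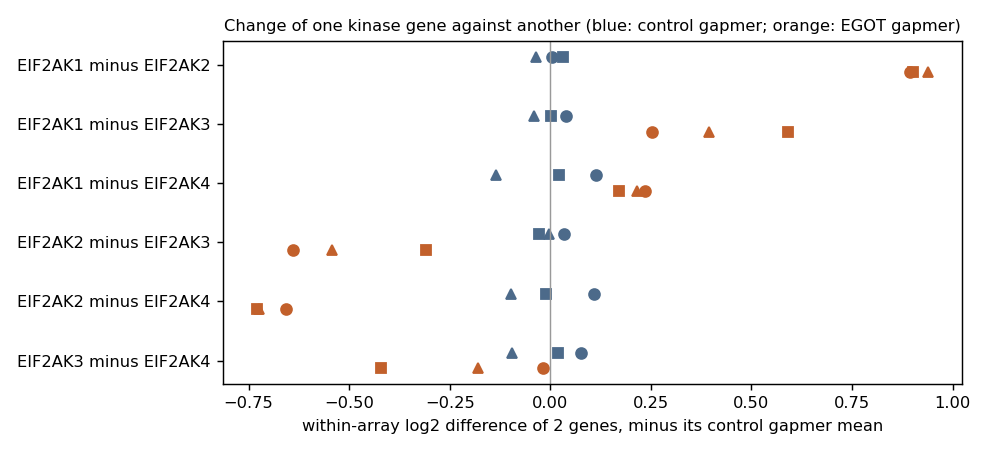
Within-array log2 difference of 2 kinase genes, set to 0 at the mean of the control gapmer arrays (horizontal axis), for the 6 pairs of genes (vertical axis). Blue points are control gapmer arrays, orange points are EGOT gapmer arrays, and shapes are replicate numbers. In EIF2AK1 minus EIF2AK2 the EGOT gapmer arrays lie together, 0.91 above the control mean, while the EIF2AK3 minus EIF2AK4 values overlap.

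The genes whose 6 values were most like those of EIF2AK2 by Pearson correlation, among 6837 brighter protein-coding genes, were COG6 (r = 0.999), HIVEP2 (r = 0.997), TBL1XR1 (r = 0.997), WDR72 (r = 0.996), FBXW8 (r = 0.995) and PRRC2C (r = 0.993). COG6 belongs to a Golgi tethering complex, TBL1XR1 to a nuclear corepressor complex, and FBXW8 to a ubiquitin ligase. All 6 were lower with the EGOT gapmer, with log2 differences from -1.37 for TBL1XR1 to -0.28 for FBXW8. Over 6 arrays in 2 groups such a correlation mainly restates the group difference, and 312 genes had an r above 0.95. For EIF2AK1 the 3 most alike were PMM1, NET1 and VPS35 (r = 0.997 each), and 514 genes had an r above 0.95. VPS35, of the retromer that recycles membrane proteins from endosomes, rose by 0.33 (limma adjusted p = 0.0477), whereas PMM1 and NET1, at 0.23 and 0.29, did not pass. EIF2AK3 was closest to SYNGR3, HSD17B1 and DTD2 (r = 0.994, 0.994 and 0.988), and EIF2AK4 to TRAPPC2, GNE and SRSF4 (r = 0.989, 0.988 and 0.987), none of which passed.

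Genes next to the kinases on their chromosomes were looked up in the gene table. GPATCH11, whose span overlaps that of EIF2AK2, was at 0.25 on the log2 scale (limma adjusted p = 0.256), and HEATR5B, 14.8 kb away, was at 0.08 (limma adjusted p = 0.667). On the other side NDUFAF7, an assembly factor of respiratory complex I, was at 0.26 (limma adjusted p = 0.0954). Beside EIF2AK1, the mismatch repair gene PMS2 was at 0.19 (limma adjusted p = 0.301) and the deubiquitinase gene USP42 at 0.24 (limma adjusted p = 0.138). EIF2AK1 overlaps AIMP2 and ANKRD61 in the gene table, which are not analysed here. SRP14, of the signal recognition particle, begins 0.099 kb beyond EIF2AK4 and was at 0.26 (limma adjusted p = 0.0996). In all, 0 of the 16 nearest measured genes passed, beside 8.41% of all genes, a share at which few of 16 would pass.

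EIF2AK2 fell among interferon-stimulated genes that were mostly lower. Of 37 measured genes of that class, EIF2AK2 left out, 18 fell, 0 rose and 34 had a difference below 0, beside 3.21% of all genes falling and 42.2% below 0. The list's median was -0.45, against 0.04 over all genes. The smallest p-values belonged to IFI44L, which fell by 1.48, the viperin gene RSAD2, which fell by 1.36, the helicase gene DDX60, which fell by 1.01, and EPSTI1, which fell by 1.00. In 8 of the 37 the fall was larger than that of EIF2AK2, whose reading may include the plasmid's transcript. The mean over the list was 7.53 to 7.80 in the control gapmer arrays and 7.12 to 7.31 in the EGOT gapmer arrays, without overlap. The number that fell was 1, 0 and 3 without control gapmer replicates 1 to 3 and 8, 13 and 4 without EGOT gapmer replicates 1 to 3, while the median stayed between -0.49 and -0.38. At an unadjusted p under 0.05 there were 29 of the 37, beside 25.0% of all genes.

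The response element core marked in the EIF2AK2 promoter was frequent in that list. Of its 31 genes with a RefSeq promoter, 21 (67.7%) held GAAANNGAA in at least 1 listed promoter and 18 (58.1%) held ANNGAAACT. Among all 10736 tested genes with a promoter these shares were 8.56% and 4.98%. Of the 919 tested genes with GAAANNGAA, 53 (5.77%) fell and 44 rose, and their median difference was 0.02. Of the 535 with ANNGAAACT, 35 (6.54%) fell and 25 rose, with a median of 0.03, beside 386 (3.60%) falling and a median of 0.04 among the 10736. Neither motif's genes were thus mostly lower, and each set includes genes that hold both motifs. The arrangement found in EIF2AK2, both matches on 1 strand sharing 6 bases, was chosen after the data were seen and counted as well. That arrangement was in 96 promoters (0.273%) and in 12 of the 31 interferon-stimulated genes (38.7%). Of the 40 tested genes with it, 8 fell and 0 rose, 31 had a difference below 0, and their median was -0.20. EIF2AK2 and interferon-stimulated genes of the list made up 13 of the 40 and 6 of the 8. These genes include EIF2AK2 and part of the interferon-stimulated list, so the shares are not separate evidence. A part of the element in these falls was not tested.

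**Figure D4:**
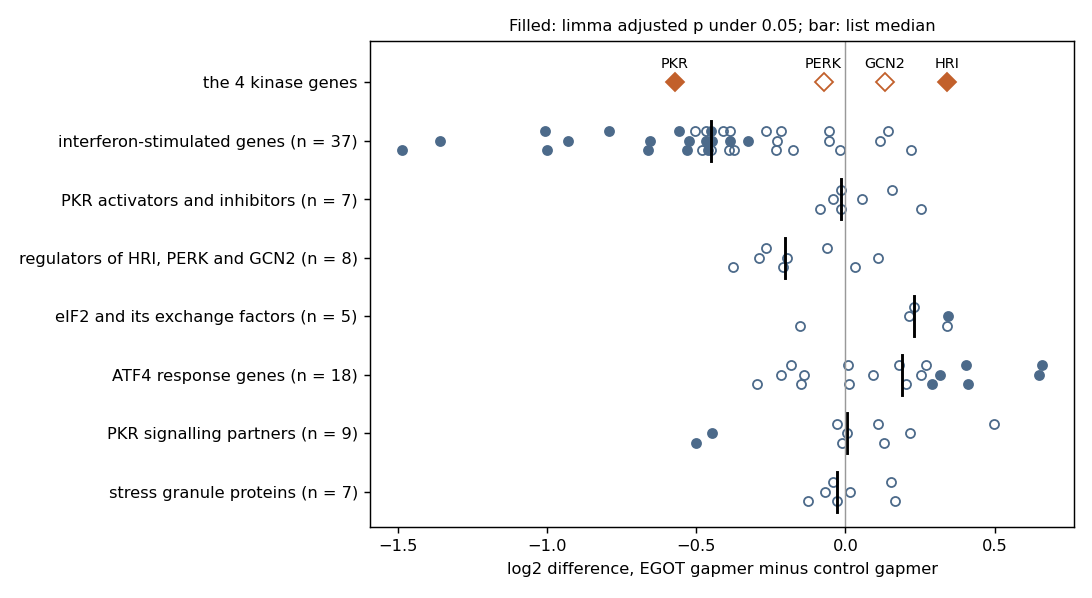
Log2 difference, EGOT gapmer minus control gapmer (horizontal axis), of the 4 kinase genes (diamonds) and of the measured genes of 7 lists (circles, one row per list). Filled symbols passed a limma adjusted p of 0.05 and bars are list medians. The interferon-stimulated row has its median at -0.45 and the ATF4 row at 0.19, while PKR activators and stress granule genes lie around 0.

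Proteins that act on PKR had 0 of 7 measured genes past the threshold, beside 8.41% of all genes, with a median of -0.02 (17 genes were listed, and PRKRA, DNAJC3 and ADAR were among the 10 not analysed here). METAP2, whose product shields eIF2alpha from phosphorylation, differed by 0.25 on the log2 scale (limma adjusted p = 0.0780). TARBP2, a double-stranded RNA-binding inhibitor of PKR, differed by 0.16 (limma adjusted p = 0.340). STRBP and NCK1, at -0.09 and 0.05, were further from the threshold. At an unadjusted p under 0.05 there was 1 gene of the 7, beside 25.0% of all genes, so neither count sets this list apart. With dim genes left out or with a variance trend 1 of the 7 rose. Over all genes 1688 of the 7406 kept rose in the first setting and 1664 of 14812 in the second.

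A list around the other 3 kinases, of their regulators and of parallel unfolded protein response genes, was lower in part without passing. Of 8 measured, 0 passed and 5 had EGOT gapmer values wholly below the control values, beside 11.5% of all genes. The list median was -0.20. Among those 5, ERN1, XBP1 and ATF6 belong to parallel branches of the unfolded protein response. GCN1, the scaffold that activates GCN2 on ribosomes, read 8.24, 8.28 and 8.25 against 7.97, 8.05 and 7.95, a difference of -0.27 (limma adjusted p = 0.0537). MAP3K20, the ribotoxic stress kinase ZAK, was at -0.38 (limma adjusted p = 0.0532). ERN1 and XBP1, which form the parallel IRE1 branch of the unfolded protein response, differed by -0.29 and -0.21, with limma adjusted p-values of 0.0523 and 0.134. The number that fell was 3 after quantile normalization, 3 after cyclic loess, 5 with dim genes left out and 5 with a variance trend. In the same order 674, 677, 859 and 849 of all genes fell, the 859 among 7406 kept, against 475 in the main comparison. The list's number was 0 after median centring, with the trend on gene length removed and with any 1 array left out. With that trend removed the list median was -0.17. ATF6 then went from -0.20 to -0.07 and MAP3K20 from -0.38 to -0.25, while XBP1 went from -0.21 to -0.25. DELE1 and OMA1, which relay mitochondrial stress to HRI, were at -0.06 and 0.03, and IMPACT was at 0.11, with overlapping groups in each.

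Of the factors around the substrate eIF2, 1 of 5 measured rose and 0 fell, beside 5.2% and 3.21% of all genes. A single call among 5 genes is no result about the list. At an unadjusted p under 0.05 there were 4 of the 5, beside 25.0% of all genes, and the median was 0.23. EGOT gapmer values lay wholly above the control values in 3 and wholly below in 1, beside 20.2% and 11.5% of all genes. With dim genes left out 3 rose, and with a variance trend 4. In these settings 1688 of 7406 and 1664 of 14812 genes rose over all genes. EIF5, the GTPase-activating protein of eIF2, read 9.11, 8.98 and 9.04 with the control gapmer and 9.29, 9.47 and 9.40 with the EGOT gapmer. Its difference was 0.34 (limma adjusted p = 0.0430), and its call was lost without any 1 array. EIF1, which guards start codon choice, and CDC123, which assembles eIF2, differed by 0.23 and 0.34, with limma adjusted p-values of 0.0818 and 0.122, and EIF5B, which joins the ribosomal subunits, was at 0.21 (limma adjusted p = 0.195). The eIF2 and eIF2B subunits were not among the 5, and the 5 listed phosphatase genes are not analysed here.

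In the ATF4 response, downstream of all 4 kinases, 6 of 18 measured genes rose and 0 fell, beside 5.2% of all genes rising, with a median of 0.19. ATF4 read 10.00, 9.89 and 9.93 with the control gapmer and 10.22, 10.38 and 10.44 with the EGOT gapmer, a difference of 0.41 (limma adjusted p = 0.0306). DDIT4, an inhibitor of mTORC1, read 7.30, 7.36 and 7.36 against 7.86, 8.04 and 8.07, a difference of 0.65 (limma adjusted p = 0.0119). DDIT3, the gene of the transcription factor CHOP, rose by 0.66, asparagine synthetase ASNS by 0.40, and the serine pathway genes PHGDH and SHMT2 by 0.32 and 0.29. Not all of the response moved this way, since ATF3, a stress-induced factor, was at -0.30 (limma adjusted p = 0.0501) and TRIB3, an ATF4 and CHOP target, at -0.14 (limma adjusted p = 0.296), with EGOT gapmer values wholly below the controls in both. The number that rose was 0 without any 1 control array and 2, 2 and 1 without EGOT gapmer replicates 1 to 3. It was 3 after median centring, 3 after cyclic loess, 3 with the trend on gene length removed, 4 after quantile normalization, 7 with a variance trend and 8 with dim genes left out. In 4 of these, quantile normalization, cyclic loess, the variance trend and dim genes left out, 1 gene also fell. The filter on dim genes kept 16 of the 18 list genes and 7406 of all 14812 genes. Over all genes 1688 rose with that filter and 1664 with a variance trend, against 770 in the main comparison.

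Of 9 measured partners of PKR in inflammatory and death signalling, 2 fell and 0 rose, beside 3.21% and 5.2% of all genes, with a median of 0.01. In addition 2 of the 8 list genes kept rose with dim genes left out and 1 of the 9 with a variance trend. Among all genes 1688 of 7406 and 1664 of 14812 rose in these settings. NFKB1, the p105 and p50 subunit of NF-kB, read 8.36, 8.42 and 8.48 with the control gapmer and 7.83, 7.99 and 7.95 with the EGOT gapmer, a difference of -0.50 (limma adjusted p = 0.0171). IRF1, an interferon-induced factor that is also in the interferon-stimulated list, fell by 0.45 (limma adjusted p = 0.0453). NFKB1 lost its call without any 1 control array or without EGOT gapmer replicate 3, and IRF1 without any 1 of the 6 arrays. MAP2K6, a kinase of the p38 pathway, was at 0.50 (limma adjusted p = 0.118) and FADD, a death receptor adaptor, at 0.22 (limma adjusted p = 0.140). Of 7 measured core stress granule genes 0 passed, beside 8.41% of all genes, and the median was -0.03. With a variance trend 1 of these rose, beside 1664 of all 14812 genes. TIAL1, G3BP2, G3BP1 and ATXN2 had differences of 0.15, 0.17, -0.13 and -0.07, with limma adjusted p-values from 0.200 to 0.624.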

How the data were processed

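The authors used RMA to make the log2 values of the table, as the submitters' processing notes record; it corrects background, normalizes between arrays and summarises probe sets. Its software and any filter are not stated in the sources used. The deposited log2 values run from 1.05 to 14.1. RMA hides a change in total RNA per cell and compresses differences of dim genes. Probe sets were named from the platform annotation. Of 44629, 15835 had 1 gene symbol, all matched to RefSeq GRCh38.p14 by gene ID. The other 28794, with no symbol or with more than 1, were left out. A list gene counted as not measured may thus have a probe set among those left out. A gene was represented by its probe set with the highest mean.

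Groups were compared over all 14812 genes with limma 3.58.1 in R 4.3.3 (lmFit, eBayes, two-sided, Benjamini-Hochberg, threshold 0.05), EGOT gapmer minus control gapmer. The 3 arrays per group limit the precision. On simulated data with 14812 genes limma recovered 42 of 100 genes changed by 0.5 log2 and 85 of 100 changed by 1, with 10 false calls. Only those genes were changed there, with independent normal noise. In the data 8.41% of genes passed, so the recovery need not hold for them. Pairs of kinase genes were compared by exact permutation (two-sided, 20 assignments). Lists are given by counts and medians. Promoter motifs were searched in the RefSeq promoters of GRCh38.p14. Their forms were chosen after the data were seen. The full element was searched first and is given as the 2 shorter motifs sharing 6 bases, and a form of intermediate length is not reported here.

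The kinase genes, lists and alternatives were chosen with earlier results of these data known. Named genes are the 4 kinase genes, EGOT, list genes past the threshold or, where fewer than 4 passed, up to 4 with the smallest p (in the interferon-stimulated list the 4 with the smallest p), nearest measured neighbours, and the genes most alike across the 6 arrays. ATF3, ATF6, TRIB3, GPATCH11, DELE1, OMA1, IMPACT and the marker genes were named after their values were seen. Alternatives were leaving out each array, 3 further normalizations, the mean of probe sets, a filter on dim genes, a variance trend, the replicate number as a block and, added after seeing the data, removal of a loess trend on gene length.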

Additional observations from a re-analysis of the deposited data

How the results depend on the processing

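All 14 alternatives kept the direction of the 4 kinase genes, and the 10 run for their 6 pairwise differences (arrays left out, further normalizations, mean of probe sets) kept theirs. Some of these could not do otherwise. The mean of probe sets, the filter on dim genes, the variance trend and the replicate block leave each kinase gene's difference unchanged. For the pairs, median centring and the mean of probe sets leave it unchanged. EIF2AK2 ranged from -0.61 to -0.53 with 1 array left out, EIF2AK1 from 0.31 to 0.39, EIF2AK3 from -0.10 to -0.02 and EIF2AK4 from 0.08 to 0.20. Beyond arrays left out, EIF2AK1 lost its call with the trend on gene length removed (0.32, limma adjusted p = 0.0609). Genes past the threshold numbered 9 to 579 with 1 array left out, fewer in each case. They numbered 664 with the trend on gene length removed and 2513 with a variance trend, against 1245, each of 14812. With dim genes left out they numbered 2547 of the 7406 genes kept. Genes of the lists around the kinases past the threshold numbered 26, with 0 to 16 when 1 array was left out. Those list genes numbered 45 with dim genes left out and 48 with a variance trend. The cause was not tested.

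Deviations of same-numbered arrays correlated at -0.0307, -0.0540 and 0.0394, within the -0.0780 to 0.0998 of different-numbered arrays. No pairing by replicate number was thus visible, which does not show that same-numbered arrays were handled apart. With the replicate number as a block limma called 0 genes and 0 of the lists' genes (3438 genes at an unadjusted p under 0.05), EIF2AK2 was at -0.57 (limma adjusted p = 0.0634) and EIF2AK1 at 0.34 (limma adjusted p = 0.106). With 3 arrays per group, differences of the size seen in EIF2AK3 and EIF2AK4 could not be told from the spread between arrays.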
